A study of Homo sapiens with 6 samples.

Results

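The baseline transcriptome of control A549 cells was described from 3 RNA-sequencing libraries, and its members are the protein-coding genes with a mean level of at least 1 TPM (transcripts per 1000000) over these libraries. Of 16688 protein-coding genes in the table, 12173 met this minimum (72.9%), 3816 were detected below it and 699 had no count in any of the 3 libraries. A549 is an established human lung adenocarcinoma cell line. The cells had been infected with lentivirus carrying lentiCRISPR v2, which encodes Cas9, with a non-targeting guide (CTRL), selected in puromycin for 5 days and collected on day 7 after infection. They grew as adherent cultures in DMEM with fetal bovine serum and added glutamine, so the baseline is that of infected, puromycin-resistant cells. The series calls the libraries biological triplicates, and no label says whether they were separate infections. Cells with a guide against UXS1 are the other group of the series and are not compared here. A single group allows no test of a difference between conditions, so each value below is a level with its standard deviation (SD) over 3 libraries.

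TPM divides the reads of a gene by its length and scales each library to a sum of 1000000, so that levels of different genes can be set side by side. Total counts were 21939859, 22059927 and 21121489 in CTRL replicates 1, 2 and 3, and protein-coding genes held 94.7% of the TPM in each. For the median member 1 TPM stood for 31.8 counts in a library, and 54 members had a mean count under 10. No library was a copy of another: the chi-square per degree of freedom between pairs ran from 3.15 to 3.39, where sampling noise alone gives about 1. For the labelled cell type the markers ALDH1A1, AKR1B10, KRT8 and FTL were looked up, and all 4 were members and stood among the 25 most abundant genes. No other cell line is in the series, so these levels describe the labelled cells and do not test the label.

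A549 cells are known to carry loss-of-function mutations of STK11, KEAP1 and SMARCA4, and a deletion of the chromosome 9 region around CDKN2A and MTAP. KEAP1 normally marks the transcription factor NRF2 (gene NFE2L2) for destruction. Without it NRF2 stays active and drives genes of the antioxidant defence, of NADPH supply and of drug metabolism. The line is often used as a model of alveolar type 2 cells, the surfactant-making cells of the lung.

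A small number of transcripts took a large part of the messenger RNA. FTL alone held 6.25% ± 0.249 of the protein-coding TPM (SD, n = 3), the 10 most abundant genes held 17.2% ± 0.155, the 100 most abundant 37.7% ± 0.375, and 321 genes together reached 50%. These shares depend on the unit: in CPM (counts per 1000000, not divided by gene length) the 10 most abundant genes held 7.17% and the 100 most abundant 22.7%. The median member stood at 20.97 TPM, and the middle range from the 25th to the 75th percentile ran from 7.69 to 52.2 TPM. Between 1 and 10 TPM lay 3771 members, which together held 1.87% of the protein-coding TPM. From 10 to 100 TPM there were 6853 members with 25.7%, from 100 to 1000 TPM 1453 members with 35.02%, from 1000 to 10000 TPM 89 members with 22.5%, and at 10000 TPM or more 7 members with 14.8%. The 7 were FTL, MT-CO2, MT-CO1, MT-CO3, MT-ATP6, AKR1B10 and ALDH1A1.

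**Figure D1:**
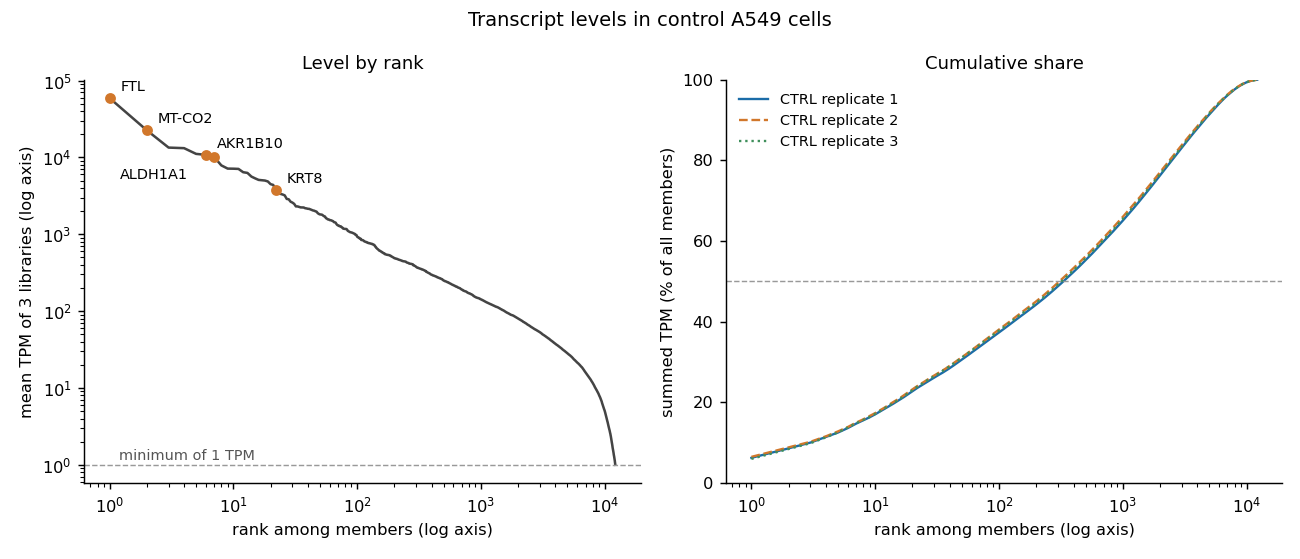
The left panel plots the mean TPM of each of the 12173 members (log axis) against its rank (log axis), with 5 genes marked. The right panel plots the summed TPM of the genes up to each rank as a percentage of all members, with 1 line per library. The level drops from 59218 TPM for FTL to the minimum of 1 TPM, and the 3 lines lie nearly on each other.

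FTL, the light chain of ferritin, was the most abundant protein-coding transcript in each library. Its level was 59272, 61536 and 56847 TPM in CTRL replicates 1, 2 and 3, a mean of 59218 ± 2345 TPM (SD, n = 3). Each of these values lay far above the highest value of the next gene, MT-CO2, which was 23097 TPM. FTH1, the ferritin heavy chain that oxidises iron for storage, stood at 5006, 5152 and 5146 TPM, so that the light chain exceeded the heavy chain 11.6-fold on average (ratios of 11.84, 11.94 and 11.05 within the libraries). FTL lies on GRCh38 chr19:48965301-48966878 (plus strand) and FTH1 on chr11:61959718-61967660 (minus strand). Of the stretches of 50 bases in their transcripts, 18.34% for FTL and 25.04% for FTH1 also occur in transcripts of another gene, never a protein-coding one, and BEST1 covers 62.4% of the FTH1 exons on the opposite strand, so both values are uncertain by the reads that such sharing adds or removes.

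Mitochondrially encoded transcripts formed the largest group among the 25 most abundant genes, with 10 of 25 places. The 13 protein-coding genes of the mitochondrial genome encode core subunits of the respiratory chain and of ATP synthase, and all were members. They summed to 96777, 97246 and 100791 TPM, or 10.4% ± 0.229 of the protein-coding TPM. The cytochrome c oxidase subunits MT-CO2, MT-CO1 and MT-CO3 led with means of 22558, 13429 and 13202 TPM, and the ATP synthase subunit MT-ATP6 followed with 11124 TPM. Subunits of complex I ranged from 7135 TPM for MT-ND4 to 874 TPM for MT-ND6. The nuclear-encoded partners of these proteins were lower. Of 80 nuclear genes of the respiratory chain 77 were members, with a median of 102 TPM over those members and a sum of 13011 ± 243 TPM. ATP5F1B, the catalytic beta subunit of ATP synthase, was the most abundant of them at 1362 ± 20.1 TPM. Nuclear copies of mitochondrial DNA share between 22.1% and 49.5% of the 50-base stretches of 6 of the top mitochondrial genes (MT-CO1, MT-CO2, MT-CO3, MT-ATP6, MT-ND1 and MT-ND2).

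Structural and housekeeping genes filled most of the other places. ACTG1 and ACTB, the cytoplasmic actins, stood at 7879 ± 34.1 and 7090 ± 111 TPM, and TMSB10, a thymosin that binds actin monomers, at 6997, 7862 and 6609 TPM. For TMSB10 the library of CTRL replicate 2 was the highest and that of replicate 3 the lowest. All 44 genes of the cytoskeleton list were members and 38 reached 100 TPM, with PFN1 (profilin) at 3208 ± 116 TPM and the calcium-binding proteins S100A11 and S100A6 at 2487 and 2307 TPM. IGFBP4, a secreted binding protein of insulin-like growth factors, stood at 4965, 5028 and 5012 TPM, so that a secreted protein was among the top 25. EEF1A1, which brings aminoacyl-tRNA to the ribosome, varied little, with 3350, 3369 and 3355 TPM. The 86 cytosolic ribosomal protein genes were all members and summed to 54431, 57271 and 53601 TPM, which is 5.82% ± 0.205 of the protein-coding TPM. RPS2 (3392 ± 101 TPM), RPL13A (2884 ± 105 TPM) and RPL19 (2236 ± 131 TPM) led that list, and all 3 were highest in replicate 2. All 33 chaperone genes were members, led by HSP90AB1 at 1807 ± 17.8 TPM and the small heat shock protein HSPB1 at 1621 ± 24.6 TPM. Of 38 proteasome genes 37 were members, with a median of 106 TPM, and only the thymus-specific subunit gene PSMB11 had no count.

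The order of the top 25 was partly within the spread of the libraries. In 15 of the 24 pairs of neighbours the ranges over 3 libraries overlapped. The steps that did not overlap were FTL over MT-CO2, MT-CO2 over MT-CO1, MT-CO3 over MT-ATP6, ALDH1A1 over ACTG1, ACTB over GAPDH, KRT81 over MT-ND3, MT-ND1 over KRT18, MT-CYB over KRT8 and KRT8 over RPS2. AKR1B10, at 10489, 10286 and 11612 TPM, and ALDH1A1, at 10321, 10157 and 9890 TPM, overlapped and cannot be ordered.

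**Figure D2:**
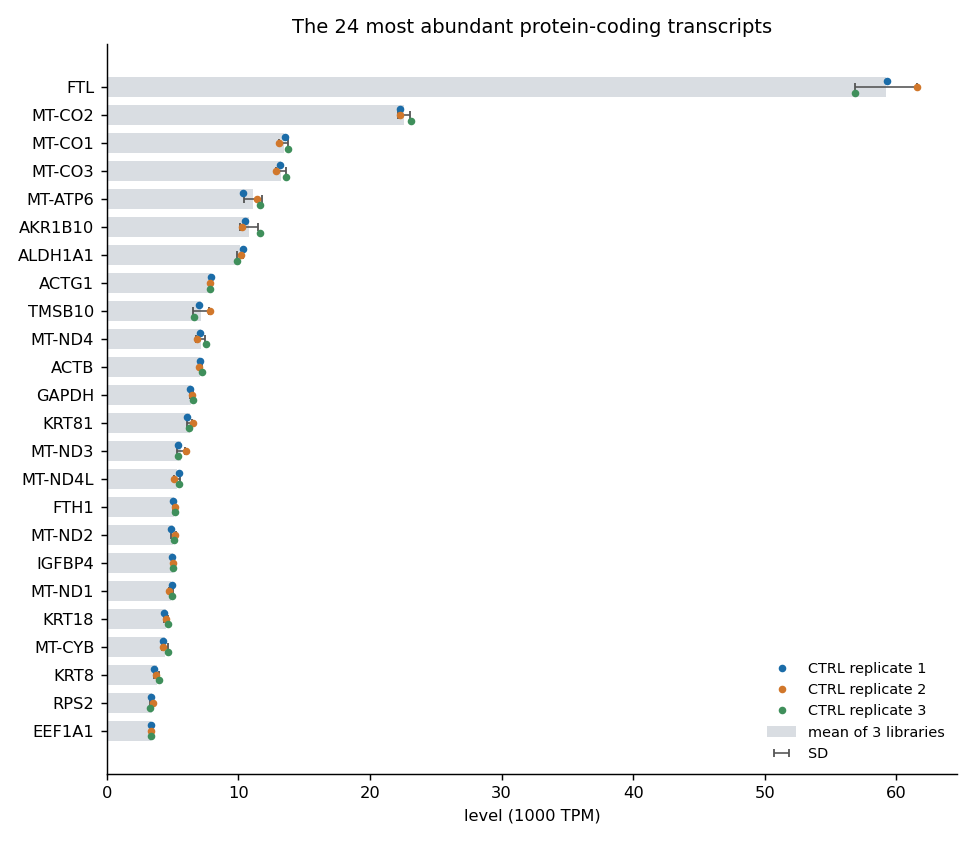
Bars give the mean level of the 24 most abundant protein-coding genes in units of 1000 TPM, error bars the SD over 3 libraries, and points the single libraries. FTL stands apart at 59218 ± 2345 TPM, and the points of most neighbours from MT-CO1 downwards overlap.

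A549 cells had the keratins of simple epithelia at high levels, and lacked nearly all surfactant genes. KRT18 and KRT8, partner keratins of simple epithelia, stood at 4337, 4503 and 4625 TPM and at 3596, 3763 and 3953 TPM, both with replicate 1 the lowest and replicate 3 the highest. KRT7, the usual type II keratin of lung glands, stood at 2078 ± 15.6 TPM and KRT19 at 198 ± 5.71 TPM. KRT81, a keratin known from hair, was the most abundant keratin at 6109, 6522 and 6232 TPM. Of the 50-base stretches of KRT81, 43.7% occur in other genes, 37.6% in its neighbour KRT86, which was listed at 30.7 ± 5.31 TPM. Of 24 measured genes for epithelial keratins and adhesion 20 were members, against 72.9% of all protein-coding genes. CD24, a surface glycoprotein, had 841 ± 26.9 TPM and the junction protein JUP had 611 ± 54.7 TPM. Several epithelial genes were low. The cadherin CDH1 had 29.6 ± 1.65 TPM, EPCAM 6.03 ± 0.490 TPM, and the epithelial splicing factors ESRP1 and ESRP2 0.188 and 0.165 TPM.

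The measured surfactant protein genes of alveolar type 2 cells and the lung factor NKX2-1 were below the minimum. So were LAMP3 (0.400 TPM), PGC (0.0274 TPM) and SLC34A2 (0.0211 TPM) of the same list. Of 13 measured type 2 genes 5 were members, against 72.9% of all protein-coding genes, and these were LPCAT1 (65.4 ± 3.83 TPM), which makes surfactant lipid, the lamellar body transporter ABCA3 (46.5 ± 2.21 TPM), the transcription factor ETV5 (35.7 ± 2.30 TPM), the protease gene CTSH (21.9 ± 1.64 TPM) and NAPSA (1.21 ± 0.340 TPM). SFTPC, the surfactant protein made by type 2 cells alone, had 0.102, 0.0493 and 0.0522 TPM. SFTPB had 0.118, 0.0383 and 0 TPM. NKX2-1, the transcription factor that sets lung identity, had 0, 0.149 and 0.105 TPM. Of the 4 measured surfactant protein genes SFTPD was the nearest to the minimum at 0.932 ± 0.379 TPM.

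Markers of other lung cell types were split. In none of these lists was the share of members above the 72.9% of all protein-coding genes. Of 10 alveolar type 1 genes 6 were members, led by the caveolae gene CAV1 (316 ± 3.48 TPM) and GPRC5A (296 ± 6.01 TPM), while AGER had 3.45 ± 0.456 TPM and AQP5, PDPN and HOPX had at most 1 count in any library. Of 11 measured club and goblet cell genes 8 were members. AGR2, a disulfide isomerase of mucus-making cells, had 252 ± 14.02 TPM and SPDEF, the transcription factor of goblet cells, 47.8 ± 1.98 TPM, while the gel-forming mucins MUC5B and MUC5AC were at 6.45 ± 1.57 and 3.85 ± 1.17 TPM. Of 5 measured basal and squamous genes 3 were members, with SOX2 at 11.6 ± 1.36 TPM and TP63 at 4.10 ± 0.495 TPM. Among 6 measured ciliated cell genes TPPP3 (15.1 ± 0.999 TPM) and CAPS (2.73 ± 0.266 TPM) were members, and FOXJ1, the master factor of motile cilia, was not, with 0.504 ± 0.288 TPM. Of 7 measured neuroendocrine genes 5 were members. UCHL1, a ubiquitin hydrolase typical of neurons and endocrine cells, was very high at 1030, 1024 and 1012 TPM. The neuronal enolase ENO2 had 74.4 ± 3.597 TPM, the granule protein CHGB 11.5 ± 0.417 TPM, the vesicle protein SYP 2.63 ± 0.267 TPM and the granule protein CHGA 1.57 ± 0.190 TPM, and the transcription factor NEUROD1 had no count.

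Of 19 measured transcription factors of liver and gut 16 were members, against 72.9% of all protein-coding genes. Most were at low levels, with a median of 9.48 TPM over these members, against 20.97 TPM over all members. CEBPB stood at 363 ± 7.56 TPM, the pioneer factor FOXA2 at 83.4 ± 3.38 TPM, SOX9 at 39.8 ± 5.59 TPM, FOXA1 at 38.0 ± 1.13 TPM and HNF4A, a master factor of hepatocytes, at 18.2 ± 0.566 TPM. In each library FOXA2 exceeded FOXA1, by 2.20-fold on average. Of 28 measured plasma proteins of the liver type 12 were members, led by vitronectin (VTN, 83.0 ± 2.70 TPM), APOH (37.8 ± 2.60 TPM) and the fibrinogen chain FGA (37.3 ± 1.16 TPM), followed by the complement component C3 (29.5 ± 1.56 TPM) and the fibrinogen chain FGB (26.3 ± 2.03 TPM). ALB, albumin, had 0.0157 TPM, and APOA2, APOB and HP had no count.

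Mesenchymal genes were present beside the keratins. Of 15 genes 14 were members, against 72.9% of all protein-coding genes. The calcium-binding protein S100A4 had 1666, 1700 and 1915 TPM, TGFBI 553 ± 13.2 TPM, vimentin (VIM) 478 ± 10.6 TPM and fibronectin (FN1) 277 ± 25.7 TPM. The transcription factors of the list were lower, with TWIST2 at 40.8 TPM and ZEB1 at 10.8 TPM. TWIST1 had 7.33 TPM, SNAI1 6.46 TPM and ZEB2 1.13 TPM, and SNAI2 was below the minimum at 0.472 TPM. S100A4 was highest in replicate 3. The ratio of the epithelial cadherin CDH1 to the neural cadherin CDH2 was 0.646 ± 0.0244.

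Defining genes of other cell types were mostly absent or low. Of 32 measured genes for fibroblasts, endothelium, leukocytes and erythroid cells 9 were members, against 72.9% of all protein-coding genes. COL1A2, DCN and POSTN (fibroblasts), KDR, ERG and EMCN (endothelium), CD3E (T cells) and HBA2 (erythroid) had no count in any library. The highest were the secreted endothelial factor EGFL7 (69.5 ± 1.16 TPM), the matrix gene FBLN1 (45.9 ± 0.468 TPM), smooth muscle actin ACTA2 (19.96 ± 1.65 TPM) and the lipopolysaccharide receptor CD14 (19.4 ± 2.54 TPM), each detected in all 3 libraries. The other members were the collagen gene COL1A1 (5.49 ± 0.168 TPM), the endothelial junction gene ESAM (5.06 ± 0.781 TPM), the surface protein gene THY1 (4.09 ± 0.737 TPM), the B cell receptor chain CD79A (1.84 ± 0.251 TPM) and the integrin gene ITGAM (1.36 ± 0.0473 TPM). The summed TPM of the 4 lists was 0.0187% of the protein-coding TPM.

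**Figure D3:**
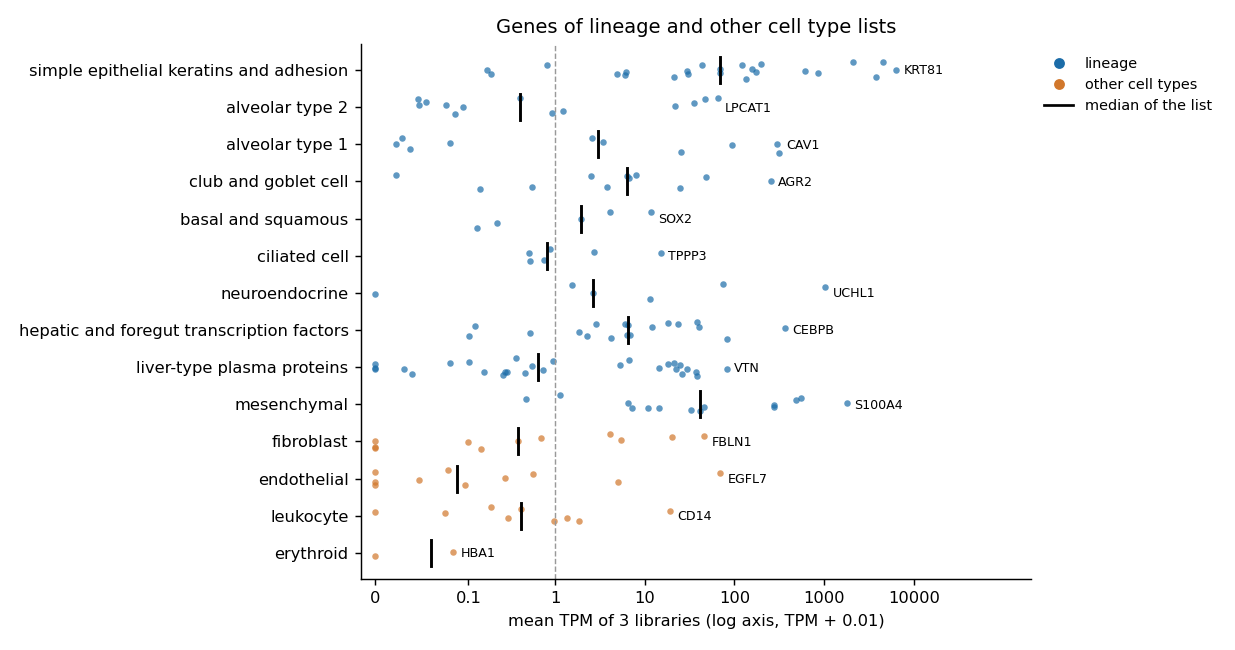
Each point is the mean TPM over 3 libraries of 1 gene of a lineage list (blue) or a list of another cell type (orange), on a log axis after adding 0.01, the black bar is the median of the list, and the dashed line marks 1 TPM. The median of the epithelial list lies at 68.5 TPM and that of the type 2 list at 0.400 TPM, and the most abundant gene of each list is named.

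Of MTAP, KEAP1, STK11 and SMARCA4, genes with known lesions in A549, only MTAP showed a nearly empty row. MTAP, the methylthioadenosine phosphorylase of methionine salvage, had 9, 8 and 7 counts (0.0890 ± 0.0103 TPM) on GRCh38 chr9:21802543-21937651. CDKN2A and CDKN2B, which lie beside it, are not analysed here. Of 9 measured protein-coding genes within 2000 kb on either side, MTAP included, 7 were members. Towards lower coordinates, KLHL9 ended 467 kb away and had 35.5 TPM, IFNE ended 320 kb away and had 1.83 TPM. Towards higher coordinates, DMRTA1 began 509 kb away and had 2.51 TPM. MTAP had the lowest mean of these 9 genes, below ELAVL2, a gene of neurons, at 0.168 TPM.

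The mutated genes KEAP1, STK11 and SMARCA4 were transcribed. KEAP1 stood at 86.8, 88.7 and 97.6 TPM and STK11, the kinase upstream of AMPK, at 28.4, 27.2 and 29.2 TPM. SMARCA4, the ATPase of the SWI/SNF chromatin remodeller, was low at 2.27, 2.11 and 2.17 TPM, and its paralog SMARCA2 exceeded it 5.31 ± 0.102-fold. NFE2L2 stood at 82.1 ± 4.22 TPM, MYC at 90.2 ± 1.92 TPM and RB1 at 37.9 ± 2.00 TPM. Among receptor genes MET (130 ± 8.21 TPM) exceeded EGFR (85.1 ± 8.59 TPM) in each library, ERBB2 stood at 44.7 ± 0.658 TPM and ERBB3 at 2.60 ± 0.216 TPM. BRAF had 2.93 ± 0.167 TPM. RET, ROS1 and ALK, kinase genes that are fusion partners in other lung cancers, were below the minimum at 0.802, 0.103 and 0.0292 TPM. Transcript levels show nothing of a mutation in the sequence.

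Metabolic genes were broadly present. Of 310 measured genes in 15 metabolic lists 276 were members, against 72.9% of all protein-coding genes, and together they held 12.1% ± 0.207 of the protein-coding TPM, FTL included. PGD, an NADPH-yielding enzyme of the pentose phosphate pathway, had 2145, 2147 and 2127 TPM, and malic enzyme (ME1), which also yields NADPH, 265 ± 18.1 TPM. Transketolase (TKT) and transaldolase (TALDO1), of the branch of the pathway that yields none, had 1008 ± 3.89 and 499 ± 13.1 TPM. The 16 measured genes of this list were all members.

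The glycolysis list was led by GAPDH, PKM and ENO1. GAPDH had 6299, 6445 and 6527 TPM, the pyruvate kinase PKM 2231 ± 56.5 TPM, ENO1 1971 ± 54.2 TPM, TPI1 1304 ± 34.4 TPM and PGK1 481 ± 11.1 TPM. The glucose carrier SLC2A1 had 237, 226 and 253 TPM, and the other class I carrier with a level above the minimum, SLC2A3, had 27.1 ± 2.67 TPM. SLC2A6, a carrier of lysosomal membranes, had 67.3 ± 7.10 TPM, and SLC2A2 and SLC2A10 had no count. Among hexokinases HKDC1 (76.1 ± 5.83 TPM) and HK1 (65.6 ± 1.68 TPM) were members and HK2 was not, with 0.474 ± 0.0281 TPM. LDHA, the lactate dehydrogenase chain that favours lactate formation, had 1109 ± 21.8 TPM, and BSG, the chaperone of lactate carriers, 751 ± 18.1 TPM. ALDOA, the aldolase of most tissues, was listed at only 57.8 ± 3.88 TPM, and LDHB at 72.6 ± 1.25 TPM. Both share exons with another annotated gene on the same strand, over 42.3% of the ALDOA exons (AC093512.2) and 33.4% of the LDHB exons (AC010197.2), so these 2 levels are uncertain and the 15.3-fold excess of LDHA over LDHB with them.

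The citric acid cycle list, of which 20 of 21 genes were members, also holds ACLY and SLC25A1, which act on citrate outside the cycle. The citrate-using enzyme ACLY led at 592, 563 and 604 TPM, with MDH2 at 408 ± 6.76 TPM and the citrate carrier SLC25A1 at 291 ± 13.6 TPM. Fatty acid synthesis had 20 of 21 measured genes as members, with the desaturase SCD at 2762, 2564 and 2638 TPM, the highest of any lipid gene listed. FADS2 and FADS1, desaturases of polyunsaturated fatty acids, had 457 ± 7.91 and 276 ± 12.8 TPM, fatty acid synthase (FASN) 433, 393 and 456 TPM and the transcription factor SREBF1 282 ± 6.57 TPM. All 25 genes of cholesterol synthesis and uptake were members, at a median of 61.2 TPM and led by DHCR7 at 241 ± 7.36 TPM. Fatty acid oxidation had 21 of 24 measured genes, led by ECHS1 at 411 ± 5.24 TPM.

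Amino acid supply was uneven. SLC7A5, the light chain of the large neutral amino acid carrier, had 1585, 1587 and 1621 TPM, and its heavy chain SLC3A2 461 ± 1.36 TPM. SLC1A5, a glutamine carrier, had 336 ± 10.9 TPM. The first serine synthesis enzyme PHGDH had 16.1 ± 0.596 TPM and the next, PSAT1, 257 ± 4.99 TPM, a ratio of PSAT1 to PHGDH of 15.97 ± 0.480. All 27 genes of nucleotide synthesis were members, led by thymidine kinase (TK1, 504 ± 19.9 TPM). All 14 genes around UDP-glucose were members. UGDH, which makes UDP-glucuronate, stood apart from the rest of that list at 557, 509 and 532 TPM, ahead of CMAS, which activates sialic acid, at 99.4 ± 2.70 TPM, and UXS1 had 31.0, 31.7 and 32.5 TPM.

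**Figure D4:**
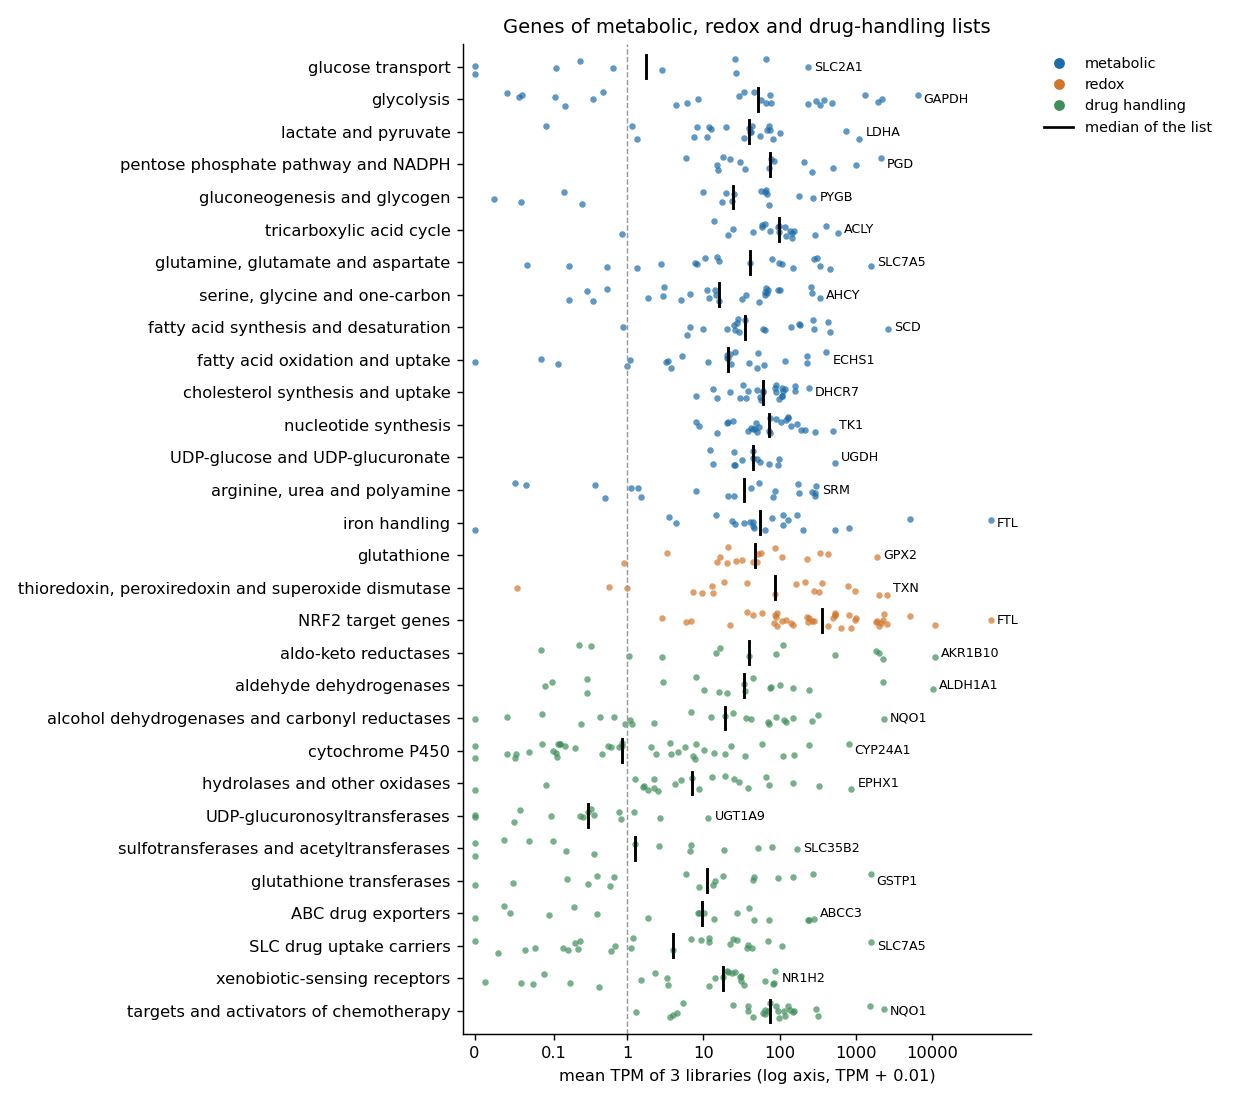
Each point is the mean TPM over 3 libraries of 1 gene of a metabolic (blue), redox (orange) or drug-handling (green) list on a log axis after adding 0.01, the black bar is the median of the list, and the dashed line marks 1 TPM. The NRF2 target list has the highest median at 356 TPM, and the UDP-glucuronosyltransferase list the lowest at 0.296 TPM.

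NRF2 target genes stood high as a group. All 42 listed genes were members, against 72.9% of all protein-coding genes, and 30 of them reached 100 TPM. Their median of 356 TPM compares with 20.97 TPM over all members. They summed to 102153, 104193 and 101569 TPM, 10.8% ± 0.148 of the protein-coding TPM, of which FTL was the larger part. Thioredoxin (TXN), a small protein that reduces disulfides, had 2638, 2677 and 2440 TPM. NQO1, a quinone reductase, had 2349, 2263 and 2301 TPM. The list was written from general knowledge of KEAP1-mutant cells with earlier results of these data known, so its level is a description. Of the antioxidant genes given next, GPX2, TXNRD1, GCLM and HMOX1 belong to the same list, and PRDX1 does not. GPX2, a glutathione peroxidase of epithelia, had 1867, 1792 and 2001 TPM, peroxiredoxin 1 (PRDX1) 2026 ± 61.3 TPM, thioredoxin reductase 1 (TXNRD1) 972 ± 33.1 TPM and the glutamate-cysteine ligase subunit GCLM 226 ± 6.91 TPM. Heme oxygenase 1 (HMOX1) had 832, 794 and 846 TPM. Of 71 measured redox genes, the NRF2 target list included, 67 were members. Not all were high, and PRDX2 and TXNIP were below the minimum at 0.563 and 0.998 TPM. The level of PRDX2 rests on 4, 4 and 13 counts. Its sharing of exons or sequence with other genes is not described here, so it cannot be read as absence.

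NRF2 binds DNA with small MAF proteins at the antioxidant response element, whose core reads TGACNNNGC. This core was searched on both strands in the 250 bases before each start in the promoter table of RefSeq (GRCh38.p14), which matched 31 of the 42 listed genes. It was found for 9 of these 31 (29.03%), against 15.8% of 9815 members with a promoter in the table and 14.3% of 3173 protein-coding genes under the minimum. The core overlaps the AP-1 motif TGACTCA where its spacer begins with TCA. The windows of the 6 genes with the highest level among the 9 are shown because they set the motif beside a measured level. Each runs 5′ to 3′ on the strand of the gene, with the core or its reverse complement in capitals.
PGD, 2140 TPM, chr1:10398853-10398881, plus strand: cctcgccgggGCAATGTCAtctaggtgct
GPX2, 1887 TPM, chr14:64942849-64942877, minus strand: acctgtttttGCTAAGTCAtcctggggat
TXNRD1, 972 TPM, chr12:104215670-104215698, plus strand: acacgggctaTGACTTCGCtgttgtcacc
TXNRD1, another start, chr12:104286920-104286948, plus strand: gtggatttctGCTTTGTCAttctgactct
EPHX1, 873 TPM, chr1:225825266-225825294, plus strand: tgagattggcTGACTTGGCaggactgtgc
ME1, 265 TPM, chr6:83431170-83431198, minus strand: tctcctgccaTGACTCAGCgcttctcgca
GCLM, 226 TPM, chr1:93909446-93909474, minus strand: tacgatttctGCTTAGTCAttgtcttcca
A match is a run of letters and not a measured binding site, and a gene without a match in this window may hold the element elsewhere.

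Genes of drug handling differed widely by family. Of 263 measured genes 177 were members (the background over all protein-coding genes was 72.9%), and together they held 5.00% ± 0.135 of the protein-coding TPM. The aldo-keto reductases, which reduce aldehydes, ketones and quinones, summed to 17060, 16852 and 19232 TPM with replicate 3 the highest. AKR1B10, on chr7:134527592-134541408 (plus strand), had 10489, 10286 and 11612 TPM. AKR1B1, aldose reductase, had 2030, 2014 and 2770 TPM, and its value in replicate 3 stood well over the other libraries. AKR1C2 had 1969, 1971 and 2039 TPM, AKR1C3 had 1784, 1810 and 1930 TPM, and AKR1C1 had 510, 496 and 606 TPM, again highest in replicate 3. Of 15 measured genes 12 were members, and AKR1D1 of bile acid synthesis was near 0 at 0.0641 TPM.

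AKR1C1, AKR1C2 and AKR1C3 lie side by side on chromosome 10 and have similar coding sequences. The division of reads among them is uncertain, most of all between AKR1C1 and AKR1C2. In the coding sequences of GENCODE 29, which have 969 bases each, AKR1C1 and AKR1C2 are 98.0% identical with 19 differing bases, AKR1C1 and AKR1C3 are 91.8% identical, and AKR1C2 and AKR1C3 are 91.2% identical. The longest run without a difference is 186 bases between AKR1C1 and AKR1C2, and 51.6% of the 50-base windows of their coding sequences are the same at the same place. For AKR1C3 this share is 14.7% with AKR1C1 and 18.4% with AKR1C2. The stretch from coding base 103 to 162, counted from the A of the start codon, has the most differences of all stretches of 60 bases that begin at a codon, and is shown because it is where reads can tell the 3 genes apart. Capitals mark the 15 positions at which at least 1 gene differs.
AKR1C1: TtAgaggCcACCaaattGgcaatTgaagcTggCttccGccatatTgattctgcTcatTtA
AKR1C2: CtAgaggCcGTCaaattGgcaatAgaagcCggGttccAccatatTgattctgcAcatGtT
AKR1C3: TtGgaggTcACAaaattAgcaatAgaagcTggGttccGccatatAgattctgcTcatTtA
The ratio of AKR1C2 to AKR1C1 was 3.86, 3.97 and 3.37 in replicates 1, 2 and 3.

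Aldehyde dehydrogenases summed to 13183 ± 150 TPM, mostly from ALDH1A1. ALDH1A1, the retinal dehydrogenase used as a marker of stem-like tumour cells, lies on chr9:72900662-73080442 (minus strand) and had 10321, 10157 and 9890 TPM, and none of its 50-base stretches occurs in another gene. ALDH3A1, which oxidises aromatic and lipid aldehydes, had 2180, 2184 and 2348 TPM. ALDH3B1 had 245 ± 15.7 TPM and ALDH1B1 150 ± 0.459 TPM. Of 19 genes 15 were members. Among quinone and carbonyl reductases, PTGR1 (319 ± 4.24 TPM), HSD17B10 (262 ± 0.989 TPM) and CBR1 (148 ± 10.5 TPM) followed NQO1.

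Cytochromes P450 and their partners were low with few exceptions. Of 40 measured genes 19 were members, at a median of 0.851 TPM over the 40. CYP24A1, which inactivates vitamin D, had 846, 772 and 783 TPM, and CYP2S1 249, 236 and 254 TPM. POR, the electron donor of these enzymes, had 156 ± 1.89 TPM. CYP3A4, the main drug-oxidising enzyme of the liver, had 4, 3 and 2 counts, and CYP1A1 had 0.241, 0.562 and 1.04 TPM from 5, 12 and 21 counts. The epoxide hydrolase EPHX1 had 873 ± 68.5 TPM and the lactonase PON2 328 ± 10.4 TPM.

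Conjugating enzymes differed by family. GSTP1 was the leading glutathione transferase with 1539, 1594 and 1541 TPM, followed by MGST1 (273 ± 7.23 TPM) and GSTO1 (150 ± 7.38 TPM), and 11 of 18 measured genes of that list were members. Of 15 measured UDP-glucuronosyltransferase genes 3 were members, UGT1A9 at 11.6 ± 1.03 TPM, UGT1A7 at 2.68 ± 0.175 TPM and UGT2B15 at 1.24 ± 0.170 TPM. The UGT1A genes share their last exons on the same strand (61.2% of the UGT1A9 exons), so their levels as well as their division are uncertain. Low values of UGT1A genes cannot be read as absence. Of 15 measured genes for sulfation and acetylation 8 were members, led by SLC35B2, the Golgi carrier of activated sulfate, at 171 ± 3.28 TPM.

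Of 18 exporter genes 12 were members, against 72.9% of all protein-coding genes, and 3 of the ABCC family of multidrug resistance proteins stood above the rest. ABCC3 had 295, 270 and 281 TPM, ABCC1 258, 230 and 242 TPM, and ABCC2 246, 223 and 233 TPM, each with replicate 1 the highest and replicate 2 the lowest. Other genes of that family were lower, with ABCC4 at 40.0 ± 2.35 TPM, ABCC10 at 8.86 ± 0.602 TPM, ABCC5 at 8.44 ± 0.410 TPM and ABCC6 at 1.87 ± 0.142 TPM, while ABCC11 and ABCC12 were below the minimum and ABCC9 had no count. ABCG2, of another family, had 73.3 ± 3.25 TPM. ABCB1, P-glycoprotein, had 0.277, 0.416 and 0.492 TPM. Of the uptake carriers 16 of 27 measured were members, with the organic cation carrier SLC22A3 at 106 ± 3.07 TPM and the nucleoside carrier SLC29A1 at 70.1 ± 1.17 TPM behind SLC7A5. Among receptors that sense foreign compounds and lipids, 19 of 25 measured were members, a share close to the 72.9% of all protein-coding genes. NR1H2 stood at 88.1 ± 3.35 TPM, NR0B1 at 84.0 ± 1.87 TPM and the glucocorticoid receptor NR3C1 at 65.0 ± 3.55 TPM. The main xenobiotic sensors of the liver, NR1I2 (PXR) and NR1I3 (CAR), were below the minimum at 0.0707 and 0.420 TPM, and AHR, the receptor of aryl hydrocarbons, had 20.3 ± 1.59 TPM. All 27 targets and activators of chemotherapy were members, with TUBB, a tubulin bound by taxanes, at 1525 ± 4.85 TPM, topoisomerase II alpha (TOP2A) at 343, 309 and 310 TPM, and BCL2L1 at 299 ± 4.87 TPM.

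The 3 libraries agreed closely for most members. The median coefficient of variation (CV, the SD as a percentage of the mean) was 5.11%, and the median that counting error alone gives was 3.80%. Among 9641 members with a mean count of at least 200, the median CV was 4.42% and 93.3% had a CV under 10%. The spread depended on depth. Members with a mean count from 10 to 100 had a median CV of 13.7%, against 13.8% from counting, and members with at least 10000 counts had 3.09%, against 0.789% from counting. The median CV over 3 libraries lies below the underlying CV, so these medians understate the spread beside counting error. With a correction for this, the CV beyond counting was 11.9% for mean counts of 1 to 10 and 9.0% for 10 to 100. It was 5.09% for mean counts of 100 to 1000, 3.78% for 1000 to 10000 and 3.63% above that. Of the 401 members with a CV above 20%, 360 had a mean count under 100 and 14 a mean count of at least 200.

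The genes with the largest CV among those with at least 200 counts included a chemokine and large secreted proteins. CCL2, a chemokine that attracts monocytes, had 19.8, 21.5 and 37.4 TPM from 243, 271 and 447 counts, a CV of 37.1%. The library of replicate 3 was the high one. The gel-forming mucin MUC5AC had 5.19, 3.23 and 3.13 TPM (CV 30.3%) and MUC5B 8.20, 5.16 and 5.99 TPM (CV 24.3%), and for both replicate 1 was the high one. PLCXD3 had 6.47, 5.65 and 9.504 TPM, and FAM43B (CV 22.2%), the adrenergic receptor ADRA1B (20.8%) and FBXO2 (20.8%) were also highest in replicate 3. GREB1 (24.7%), SYNE2 (22.4%), a giant protein of the nuclear envelope, and NBEAL1 (21.4%) were highest in replicate 1. The 10 smallest CVs belonged to RSU1, PLAA, CEP83, FDXR, REPS1, WWP2, FSTL3, RTN2, MTCH2 and MED22. RSU1 had 89.0, 88.9 and 89.0 TPM, and its CV of 0.0683% lies below its counting error of 2.10%.

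In replicates 1 and 2 the deviation from the mean of 3 libraries shifted slightly with gene length. When members were put into 5 classes by the ratio of counts to TPM, which is proportional to the length used for TPM, the median deviation from the gene's mean in replicate 1 was -0.01 on the log2 scale for the shortest class and 0.06 for the longest. In replicate 2 it was 0.01 for the shortest and -0.06 for the longest class, and in replicate 3 it stayed between -0.012 and 0.003. Replicate 1 was the highest library for 5828 of the members, replicate 3 for 3826 and replicate 2 for 2519. The part of this length trend in the differences between libraries of the single genes named above was not tested.

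**Figure D5:**
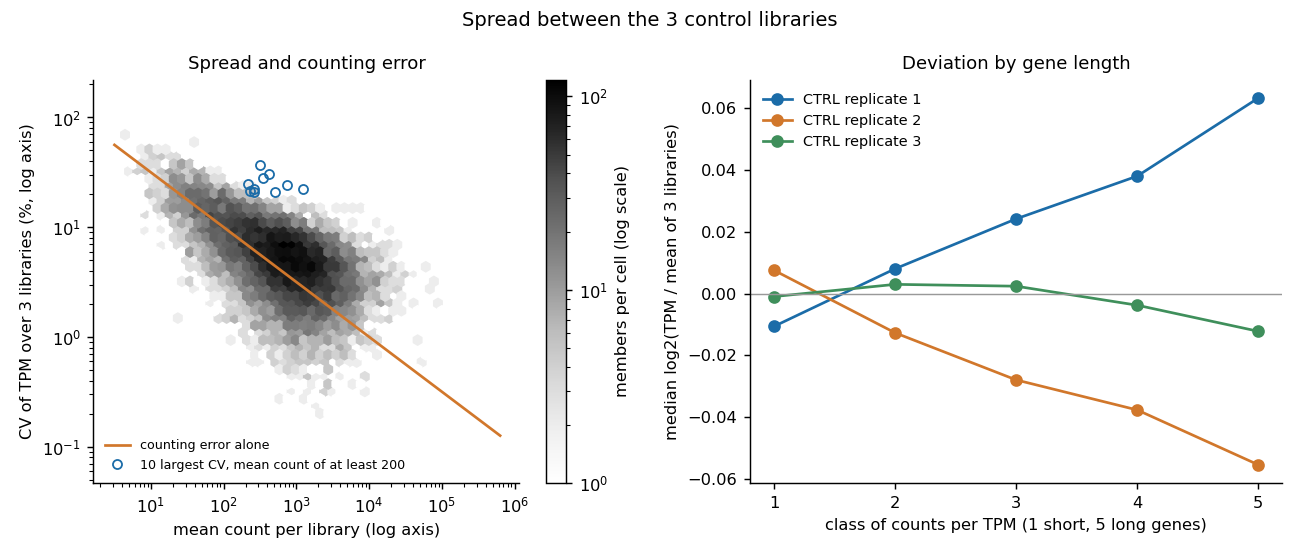
The left panel shows the members by mean count per library and CV of TPM over 3 libraries (both log axes), shaded by the number of members, with the line that counting error alone gives and the 10 genes of largest CV circled. The right panel shows the median log2 ratio of a library to the mean of 3 for 5 classes of gene length, in which replicates 1 and 2 move apart with length, to 0.06 and -0.06 in the longest class.

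The lower limit of 1 TPM fell where single libraries differ widely. The 5 genes just inside it were DPP4, EFEMP2, CPT1B, INTU and DGCR6, with means of 1.001 to 1.002 TPM, and the 5 just outside were ZNF333, TMCC3, TXNIP, ST6GALNAC3 and LCTL, with means of 0.996 to 0.999 TPM. INTU had a mean count of 99.3 and TXNIP one of 22.3, so the same level rests on different depths. At least 1 TPM in every library was reached by 11963 genes.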

How the data were processed

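Counts per gene and TPM values of 28317 genes are the authors' deposited tables, whose units are named per the file headers. The counts are whole numbers with no normalization, and the deposited TPM values sum to 1000000 in each library. Per the submitters' processing notes the tools were STAR, featureCounts and DESeq2 on hg38 (GRCh38), without versions. The annotation release, the strand setting and whether messenger RNA was selected are not stated in these sources. Groups came from the sample titles. Means, SD and CV were computed over 3 CTRL libraries (Python 3.11.15, pandas 2.3.3, numpy 2.4.6), and TMM factors with edgeR 4.0.16 and size factors with DESeq2 1.42.0 (R 4.3.3) served as alternatives. The edgeR common dispersion gave a biological CV of 3.98%. Counting error is 100 divided by the square root of the mean count. The CV beyond counting was tested on simulated data at mean counts of at least 100 and recovered within 1.06 percentage points.

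The members and the 52 gene lists were chosen with earlier results of these data known. Of 1244 list entries 1175 matched a protein-coding row by symbol. Genes named are the 4 markers, the 25 most abundant, up to 5 of each list by mean TPM, those of marker lists with no count, all lesion and driver genes, the 10 largest and 10 smallest CVs at a mean count of at least 200, and 5 genes on each side of the minimum. Further genes (among them KRT7, CDH1, EPCAM, the surfactant genes, HNF4A, ALB, LDHB, ALDOA, HK2, PHGDH, UXS1, ABCB1, CYP3A4 and CYP1A1, the genes near MTAP, and those of the closing observations) were picked with their values in view. A few genes that these rules name are not reported here. Positions, exon overlaps and shared 50-base stretches come from GENCODE 29, matched by gene identifier (12168 of 12173 members), and promoters from RefSeq. Alternatives changed the minimum, the unit, the scaling and the libraries used.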

Additional observations from a re-analysis of the deposited data

How the results depend on the processing

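The number of members stayed within 1.5 times under each alternative run, from 10006 at a minimum of 5 TPM to 12903 at 0.5 TPM, and from 12162 to 12205 with each library left out. With CPM in place of TPM, which leaves long genes with more weight, the 10 most abundant genes held 7.17% and the 100 most abundant 22.7%. Without the mitochondrially encoded genes the shares were 14.7% and 31.8%, and over the TPM of all gene types 16.3% and 35.7%. With each library left out they ran from 17.1% to 17.2% and from 37.5% to 37.9%. The median CV was 4.85% with TMM factors, 4.83% with DESeq2 size factors, 4.53% at a minimum of 5 TPM, 6.62% with no minimum and 4.69% at a mean count of at least 100, and as an SD of log2(TPM + 1) it was 0.0686. With 2 libraries in place of 3 it ran from 3.93% to 4.44%. A median CV over 2 libraries is lower than one over 3 for the same spread, so this fall does not show closer agreement. The number of members with a CV above 20% was 29 at a minimum of 5 TPM, 3528 with no minimum, 41 at a mean count of at least 100 and 184 as the SD of log2(TPM + 1), and from 447 to 455 with each library left out. Of 52 list counts, 2 moved by over 1.5 times at a minimum of 0.5 TPM and 6 at 5 TPM. Of 25 single levels, 24 moved by over 1 SD with CPM, which is a different unit, and none with a library left out. Depth limits the members with a mean count under 100, of which there are 1437. No paired analysis was possible because a single group is described.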

Other observations

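Exon sharing with another annotated gene went with low listed levels. Protein-coding genes were grouped by the largest share of their exons that another gene covers on the same strand (GENCODE 29). Rows for genes that join neighbours, of the kind of RPS10-NUDT3, were not set apart. Their part in the classes with much overlap was not tested. Of 13971 genes with no such overlap 73.6% were members, of 1833 genes with up to 20% overlap 79.7%, of 521 with 20% to 50% overlap 62.4%, and of 339 with over 50% overlap 29.8%. The median level was 0.297 TPM in the last class, against 11.3 TPM in genes with no overlap. RPS10, a protein of the small ribosomal subunit, was listed at 1.27 TPM, while the median of the 86 ribosomal protein genes was 449 TPM, and RPS10-NUDT3 covers 39.4% of its exons. RPL17 was listed at 28.8 TPM and RPL17-C18orf32 is the gene that shares most of its 50-base stretches (37.4%). FAU, of which SYVN1 covers 21.6% of the exons, was listed at 449 TPM, as high as the median of that family, and the lowest of the 83 ribosomal protein genes with at most 20% overlap was at 1.17 TPM. ASNS, the asparagine synthetase, was listed at 0.529 TPM, and AC079781.5 covers 44.6% of its exons. How reads in shared exons were counted is not given in the sources used here, its part in these values was not tested, and these levels cannot be read as absence.

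AKR1B1, chosen after its values were seen, differed between the libraries more than most genes of its depth, at 2030, 2014 and 2770 TPM, a CV of 19.0%. NFKBIA, the inhibitor of NF-kappaB that is itself an NF-kappaB target, had 121, 121 and 167 TPM, a CV of 19.1%. Among 9641 members with a mean count of at least 200, replicate 1 stood over both other libraries by more than 1.2-fold for 94, replicate 3 for 39 and replicate 2 for 8, and replicate 2 stood under both by as much for 55.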
